A study of Mus musculus with 30 samples.

Results

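The genes described here encode small noncoding RNAs of the nucleolus, of Cajal bodies and of the vault particle, measured in a mouse B-cell lymphoma line before and after the alkylating agent mafosfamide and in lines made resistant to it. They are the genes whose array probe sets carry a single annotated symbol that begins with Snora or Snord and a digit, with Scarna, or with Vaultrc. The rule gave 57 probe sets for 55 genes, out of 19937 genes with a probe set of 1 symbol. Of the 55 genes, 31 are box C/D RNAs (Snord), 20 are box H/ACA RNAs (Snora), 3 are Cajal body RNAs (Scarna8, Scarna13 and Scarna17) and 1 is a vault RNA (Vaultrc5).

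All 30 arrays held RNA of Eµ-Myc; Cdkn2a-/- B cells of C57BL/6J background, grown on irradiated Cdkn2a-/- mouse embryonic fibroblasts. Mafosfamide is a form of cyclophosphamide that is active in culture. The parental line was sampled before the drug (0 h, 5 arrays) and after 6 h (4 arrays), 12 h (4 arrays), 24 h (5 arrays) and 48 h (5 arrays) in 750 nM mafosfamide. The resistant lines R100, R500, R1000 and R4000 were taken from 1 escalation of that parental line through 100, 500, 1000 and 4000 nM, so they are successive samples of 1 history rather than independent lines. Each had 1 untreated array, and R500, R1000 and R4000 had 1 more after 24 h in 750 nM mafosfamide. In the Eµ-Myc model an immunoglobulin heavy chain enhancer drives Myc in the B lineage, and every group, the controls included, carried this transgene and lacked Cdkn2a.

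Box C/D RNAs pair with ribosomal RNA and guide ribose methylation by fibrillarin, and box H/ACA RNAs guide the conversion of uridine to pseudouridine by dyskerin. Cajal body RNAs guide the same reactions on the RNAs of the spliceosome, and vault RNAs are transcribed by RNA polymerase III and are part of a large cytoplasmic ribonucleoprotein particle. In mammals most of these guides are cut out of introns of host genes, many of which code for ribosomal proteins or for noncoding RNAs whose spliced exons are quickly degraded. A few members are needed to cut the ribosomal RNA precursor, among them the U17 RNA (Snora73a and Snora73b), U8 (Snord118), U22 (Snord22) and U14 (Snord14e).

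Of the 55 members, 53 lay inside the span of another gene in the RefSeq table of the GRCm38.p6 assembly, in 43 different host genes. Among these hosts 31 were protein coding and 12 noncoding, and 21 members sat in 16 ribosomal protein genes. Only Snord118 and Vaultrc5 lay in no other gene, and 10 hosts held a pair of members. The table gives no strand for the members, so a host on the opposite strand could not be told from a true host, and Snord47, Snord87 and Snord8 each lay inside a protein-coding gene as well as the noncoding host used here. The annotated lengths ran from 45 to 345 bases with a median of 91.

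The noncoding host genes Snhg3 and Snhg12 are shown because each holds 2 of the members that rose at 24 h, Snora73a and Snora73b in Snhg3 and Snora16a and Snora44 in Snhg12. Both lie on chromosome 4, and the RefSeq windows below cover 250 bases before to 50 bases after the annotated start (GRCm38.p6, 5′ to 3′ in the direction of transcription). Snhg3 is on the minus strand at chr4:132353637-132353936 and Snhg12 on the plus strand at chr4:132308428-132308727. Capitals mark the letters TATAA, searched on both strands.
Snhg3: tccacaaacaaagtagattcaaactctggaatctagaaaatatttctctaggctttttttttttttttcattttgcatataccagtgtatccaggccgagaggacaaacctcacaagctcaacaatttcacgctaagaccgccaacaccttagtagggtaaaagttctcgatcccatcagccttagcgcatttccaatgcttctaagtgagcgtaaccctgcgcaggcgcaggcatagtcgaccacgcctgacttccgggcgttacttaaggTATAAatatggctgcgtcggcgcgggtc
Snhg12: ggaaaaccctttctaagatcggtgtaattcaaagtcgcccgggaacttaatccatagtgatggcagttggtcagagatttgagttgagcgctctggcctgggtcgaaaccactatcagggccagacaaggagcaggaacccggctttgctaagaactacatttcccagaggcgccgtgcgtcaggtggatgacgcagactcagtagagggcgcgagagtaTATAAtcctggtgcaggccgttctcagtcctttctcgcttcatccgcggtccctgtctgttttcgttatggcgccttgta
In Snhg3 these letters lie after the annotated start and in Snhg12 before it. TATAA was found in the windows of 11 of the 32 host genes that have one, and in 24.9% of all 32841 windows of that length. The palindromic letters CACGTG, which Myc and Max can bind, were in the windows of 6 of the 32 hosts against 7.15% of all windows, and in neither window above. The p53 half-site was in the windows of 0 of the 32 hosts and in 8.36% of all windows. A match or its absence in these windows is a description of the letters and says nothing about binding.

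Values are log2 expression from robust multi-array averaging, and a change is a difference of log2 means, so that a change of 1 is a doubling. A gene was called changed where limma's moderated test, adjusted by the Benjamini-Hochberg method over all 19937 genes, gave p under 0.05. The lymphoma identity was checked with 7 B-cell markers, whose mean log2 level lay between 12.30 and 12.52 over all arrays. RNA of the feeder layer was followed with 27 fibroblast markers. Their mean log2 level was 8.22 ± 0.23 (SD, n = 5) at 0 h, 9.10 ± 0.57 (SD, n = 5) at 24 h and 8.56 ± 0.50 (SD, n = 5) at 48 h. In the untreated resistant lines it lay between 8.24 and 8.45, and in the treated ones between 7.82 and 8.17. Of the 27 markers 14 were called higher at 24 h in the parental line, among them the actin-binding genes Tpm1 (0.88) and Tagln (1.44). In such bulk samples, fewer cells of a type and less of an RNA per cell cannot be told apart. The fifth 0 h array had the narrowest spread of values, an interquartile range of 2.97 against 3.36 to 3.75 in the other arrays, and it was the lowest of the 5 control arrays for 30 of the 55 members and the highest for 1. Its mean over the members was 9.30, against 9.62 to 9.87 in the other 0 h arrays. The RNA was extracted with silica columns, which recover short RNAs less completely than long ones, and the arrays were hybridised with a whole-transcript labelling kit, so the values compare arrays prepared alike and are not absolute amounts of the mature RNAs.

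**Figure D1:**
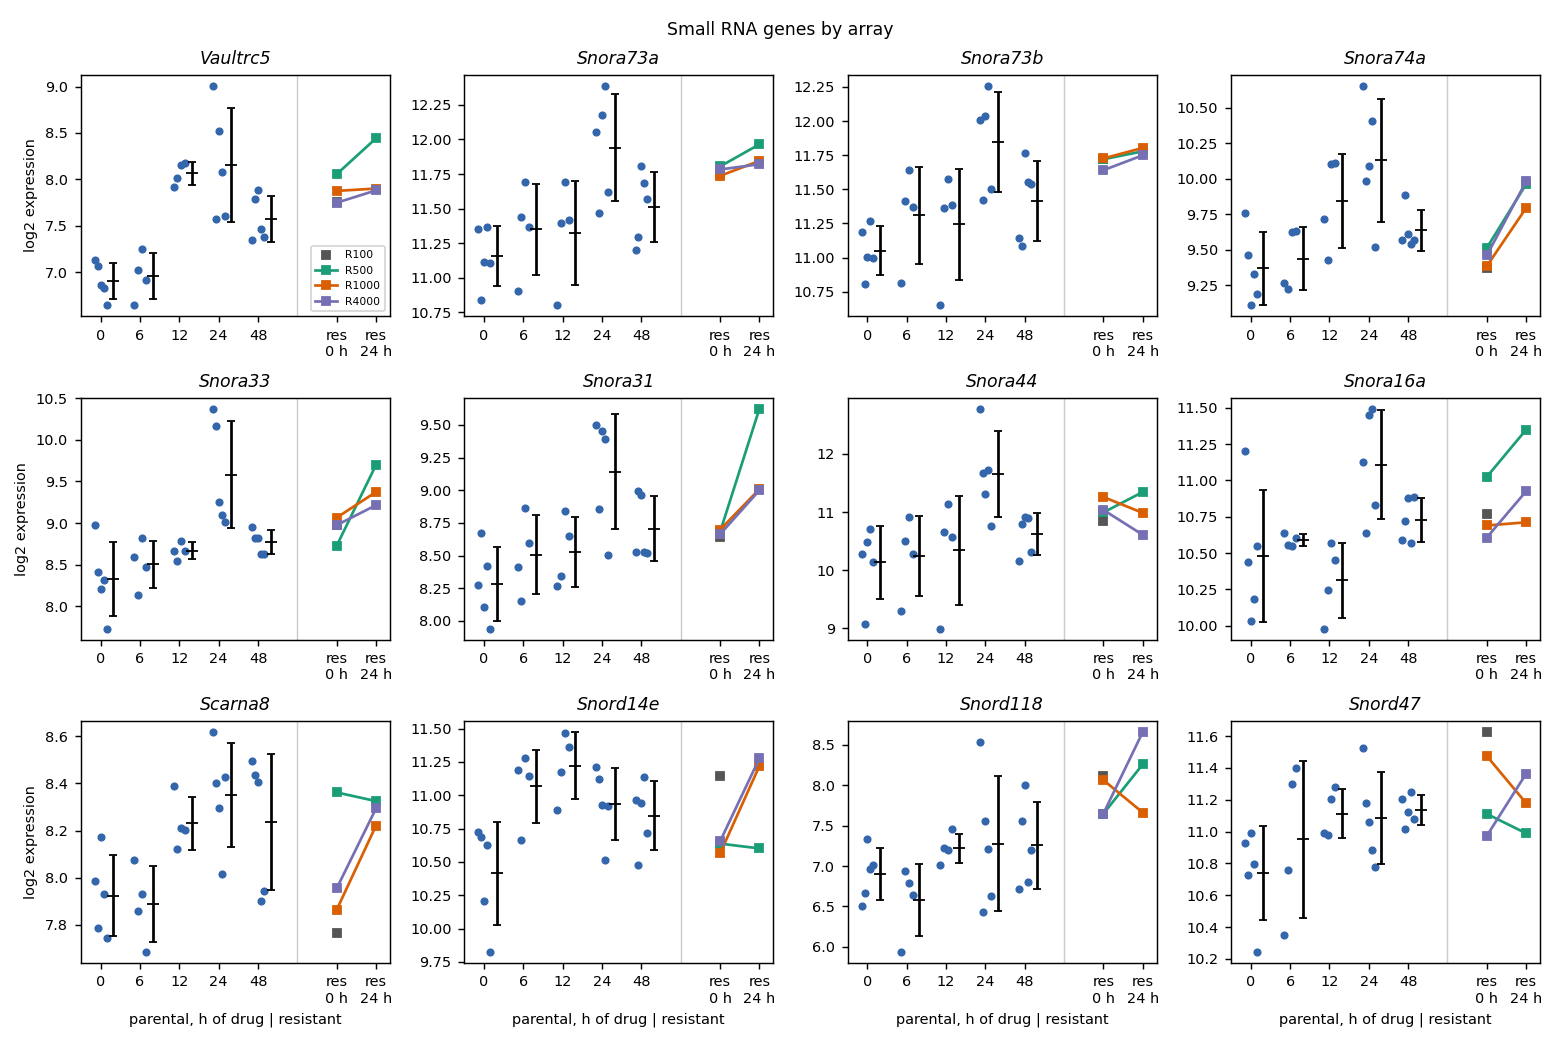
Log2 expression of 12 small RNA genes on each of the 30 arrays. Blue points are parental arrays at 0, 6, 12, 24 and 48 h of 750 nM mafosfamide with the mean and SD beside them, squares are the resistant lines untreated (res 0 h) and after 24 h of the drug (res 24 h), and a line joins the 2 arrays of a resistant line. Each panel has its own vertical axis. Vaultrc5 stood above its 0 h arrays at 12, 24 and 48 h and in all resistant lines.

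Under mafosfamide the vault RNA rose 2.24-fold by 12 h in the parental line, and by 24 h 7 of the 20 box H/ACA RNAs and 1 of the 3 Cajal body RNAs had also risen, by 1.35-fold to 2.87-fold. In the main fit 0 of the 31 box C/D RNAs were called by limma at 24 h. Of all genes 4.35% were called higher and 2.43% lower, so few calls would be counted among 31 at that share. At an unadjusted p under 0.05, 3 of the 31 were higher and 1 lower, against 29.4% of all genes in either direction. No member was called lower at any time in this fit. At 48 h no member was called. All 4 of these comparisons share the 5 arrays at 0 h.

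At 6 h, 0 members were called, and 0.01% of all genes were called higher. By the unadjusted p, 1 member passed 0.05 (Snord14e, 0.65 with an SE of 0.18, adjusted p = 0.426 by limma), against 5.13% of all genes in either direction. At 12 h, 2 of the 55 members were called higher and 0 lower, where 0.466% of all genes were called higher and 0.0451% lower. These were Vaultrc5 and Snord14e. At 24 h, 9 members were called higher and 0 lower, where 4.35% of all genes were called higher and 2.43% lower. The shares of all genes were 3.95% higher and 5.16% lower with arrays centred on their medians, where Snord8 was called besides the 9. They were 3.97% and 1.06% with arrays centred on housekeeping genes, where the same 9 were called. Snord8 was the lowest box C/D member in the main fit. By the unadjusted p, 17 members were higher and 1 lower, a share close to the 29.4% of all genes in either direction. With only the 0 h and 24 h arrays in the fit, Vaultrc5 was the 1 member called, where 0.537% of all genes were called higher. Without the first 0 h array 14 members were called, where 7.04% of all genes were called higher and 5.13% lower. The box C/D RNAs Snord14e and Snord85 were among the 14. At 48 h, 0 members were called, where 0.11% of all genes were called higher. There the unadjusted p passed 0.05 for 7 members, all above 0, against 11.7% of all genes in either direction.

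Vaultrc5, the vault RNA, was the 1 member called at both 12 h and 24 h. Its log2 levels at 0 h were 7.13, 7.06, 6.86, 6.83 and 6.64, and at 6 h 6.65, 7.02, 7.25 and 6.91. At 12 h they were 7.92, 8.01, 8.15 and 8.18, and at 24 h 9.01, 7.57, 8.52, 8.08 and 7.60. At 48 h they were 7.34, 7.79, 7.89, 7.46 and 7.38. The 6 h arrays overlapped the controls, and every array at 12, 24 and 48 h lay above all 5 controls. The change was 1.16 (SE 0.21, adjusted p = 0.00915 by limma) at 12 h, a 2.24-fold rise, and 1.25 (SE 0.20, adjusted p = 0.00114 by limma) at 24 h. At 48 h it was 0.67 (SE 0.20, adjusted p = 0.21 by limma), which was not called although the arrays did not overlap. The calls at 12 h and at 24 h were made in all 20 and all 22 alternative settings tried, with adjusted p up to 0.0485 and 0.044. Of the genes listed with the particle, Mvp (major vault protein) and the RNA-binding protein gene Ssb were measured, and Parp4 and Tep1 were not. Mvp and Ssb had changes of 0.09 (SE 0.09) and 0.03 (SE 0.07) at 24 h, and neither was called.

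Snora73a and Snora73b, copies of the U17 RNA inside Snhg3, had nearly equal profiles. Snora73a was at 11.35, 10.84, 11.11, 11.37 and 11.11 at 0 h and at 12.05, 11.47, 12.18, 12.39 and 11.62 at 24 h. Snora73b was at 11.19, 10.80, 11.00, 11.27 and 11.00 at 0 h and at 12.00, 11.42, 12.04, 12.26 and 11.50 at 24 h. For both, all 24 h arrays lay above all controls. The changes were 0.79 (SE 0.18, adjusted p = 0.0165 by limma) for Snora73a and 0.79 (SE 0.19, adjusted p = 0.0176 by limma) for Snora73b. Both RNAs are annotated at 205 bases, and whether their probe sets measure each other's RNA was not tested, so the pair may count as 1 observation.

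Snora44 and Snora16a share the host Snhg12 and rose by different amounts. Snora44 had log2 levels of 10.28, 9.07, 10.48, 10.70 and 10.13 at 0 h and 12.78, 11.68, 11.31, 11.73 and 10.76 at 24 h. The groups did not overlap, and the change of 1.52 (SE 0.39, adjusted p = 0.0261 by limma) was the largest among the 55 members in this comparison, with a 95% interval from 0.71 to 2.33. It also had the widest range of all members over the 30 arrays, 3.79. Snora16a was at 11.21, 10.44, 10.03, 10.18 and 10.55 at 0 h and at 11.13, 10.64, 11.45, 11.49 and 10.83 at 24 h. These groups overlapped through the control array at 11.21, and the change was 0.63 (SE 0.18, adjusted p = 0.0402 by limma). Of 22 alternative settings, the 24 h call was made in 14 for Snora44 and in 12 for Snora16a. The adjusted p by limma reached 0.237 and 0.184 there.

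Snora33, Snora31 and Snora74a lie in separate hosts. Snora33, in the ribosomal protein gene Rps12, was at 8.98, 8.41, 8.21, 8.32 and 7.73 at 0 h and at 10.37, 10.17, 9.26, 9.09 and 9.01 at 24 h. The groups did not overlap, and the change was 1.25 (SE 0.23, adjusted p = 0.003 by limma). Its levels at 48 h, 8.62 to 8.95, were below every 24 h array. Snora31, in Tpt1, was at 8.28, 8.68, 8.11, 8.42 and 7.94 at 0 h and at 9.50, 8.86, 9.45, 9.39 and 8.50 at 24 h, a change of 0.86 (SE 0.19, adjusted p = 0.011 by limma). Snora74a, in Snhg4, was at 9.76, 9.46, 9.11, 9.33 and 9.19 at 0 h and at 10.66, 9.99, 10.09, 10.40 and 9.52 at 24 h, a change of 0.76 (SE 0.17, adjusted p = 0.0143 by limma). For both, the fifth 24 h array lay inside the control range and the other 4 above it.

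The other 13 box H/ACA members were not called at 24 h. The change was above 0 in 19 of the 20 members of the class, with a median of 0.43 and a range from -0.19 to 1.52, beside a median of -0.036 over all genes. Next to the threshold were Snora20 in Tcp1 (0.66, adjusted p = 0.0774 by limma) and Snora62 in Rpsa (0.47, adjusted p = 0.0783 by limma). Snora21 in Rpl23 had the lowest value of the class, -0.19 (SE 0.20). Snora3 and Snora21 were the members with a further probe set, and the mean log2 levels of Snora3 rose from 10.73 to 11.12 on the probe set used and from 10.58 to 10.86 on the other. For Snora21 the probe sets differed in direction, from 11.87 to 11.68 on the one used and from 9.19 to 9.45 on the other.

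Among the Cajal body RNAs, Scarna8 in the mitotic spindle gene Haus6 was at 7.99, 7.78, 8.17, 7.93 and 7.74 at 0 h and at 8.62, 8.40, 8.30, 8.01 and 8.43 at 24 h. The groups overlapped through 1 array at 24 h, and the change was 0.43 (SE 0.12, adjusted p = 0.0423 by limma). This call was lost in several other fits, among them those without the fifth 0 h array, without the first 24 h array and with the fibroblast covariate. Scarna13 had a larger change with a wider spread, 0.74 (SE 0.27, adjusted p = 0.0903 by limma), and Scarna17 had a change of -0.05 (SE 0.13).

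The box C/D RNAs had a median change of 0.10 at 24 h, with 23 of 31 above 0 and a range from -0.28 to 0.54. Snord14e, a U14 RNA inside the chaperone gene Hspa8, was the member of this class with a call at another time. Its log2 levels were 10.72, 10.69, 10.21, 10.63 and 9.83 at 0 h and 10.89, 11.17, 11.46 and 11.36 at 12 h. The groups did not overlap, and the change at 12 h was 0.81 (SE 0.18, adjusted p = 0.0477 by limma). The changes were 0.52 at 24 h (adjusted p = 0.0652 by limma) and 0.43 at 48 h (adjusted p = 0.36 by limma). The 12 h call was made in 10 of 20 alternative settings and was lost without the fifth 0 h array. Snord22 (0.27, SE 0.26) and Snord118 (0.37, SE 0.31) were not called at 24 h. Snord8 had the lowest change of the class, -0.28 (SE 0.10, adjusted p = 0.0774 by limma).

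**Figure D2:**
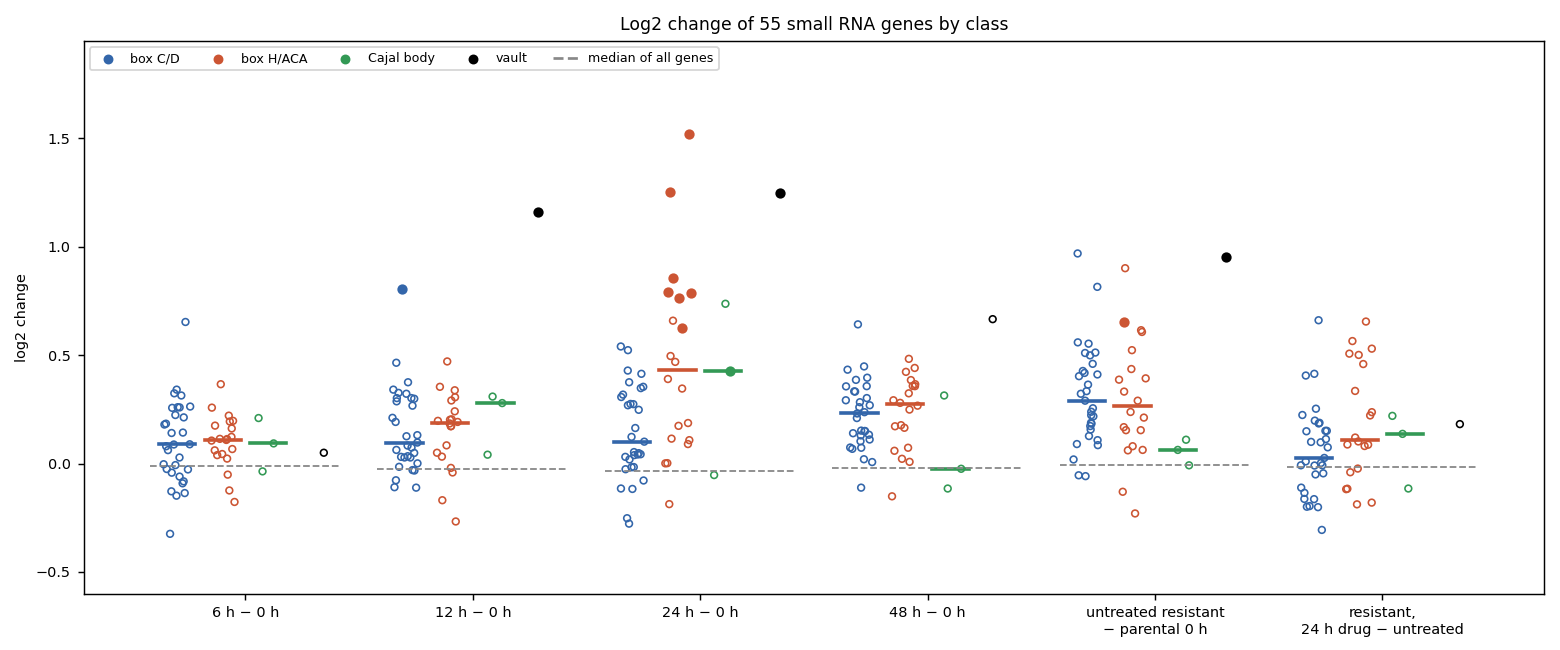
Log2 change of each of the 55 small RNA genes in 6 comparisons, coloured by class. Filled points passed limma's adjusted p of 0.05, open points did not, solid bars are class medians and the dashed line is the median of all 19937 genes. At 24 h the filled points are 7 box H/ACA RNAs, Scarna8 and Vaultrc5, and the box C/D median of 0.10 lies below the box H/ACA median of 0.43.

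Counted over all 55 members, the change was above 0 in 39 at 6 h, 45 at 12 h, 45 at 24 h and 51 at 48 h, against 42.8% to 45.2% of all genes. The medians were 0.09, 0.17, 0.25 and 0.25, beside medians of all genes between -0.036 and -0.011. These shifts rested in part on the fifth control array. Without it the medians were 0.014, 0.033, 0.10 and 0.118, with 30, 34, 36 and 47 members above 0. The 24 h median was also 0.111 without the first 24 h array, and 0.080 without the 2 arrays at 24 h of the highest fibroblast level. Members with all arrays above all controls numbered 0 at 6 h, 3 at 12 h, 5 at 24 h and 2 at 48 h, where 0.657%, 1.71%, 1.98% and 0.672% of all genes did so and 0.436%, 1.27%, 2.6% and 0.948% lay wholly below. The 3 at 12 h were Vaultrc5, Snord14e and Scarna17, and the 2 at 48 h were Vaultrc5 and Snord47, which lies in Gas5. No member lay wholly below the controls at any time.

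Between 24 h and 48 h, 0 members were called, where 0.0251% of all genes were called higher and 0.0803% lower. By the unadjusted p, 9 members were lower and 0 higher, against 6.77% of all genes in either direction. These 9 were Vaultrc5, Scarna13 and the 7 box H/ACA RNAs called at 24 h, with changes from -0.38 (Snora16a) to -1.04 (Snora44). The 24 h arrays that gave the 24 h calls are also the base of this comparison, so these falls are no independent observation. Snora33 fell by 0.81 on average (SE 0.23, adjusted p = 0.348 by limma), and it was the 1 member whose arrays at 24 h and 48 h did not overlap, against 0.928% of all genes that lay wholly lower at 48 h and 0.868% wholly higher.

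The fibroblast markers moved with the 24 h group, and the 24 h calls were set against them in 2 further fits. With the mean of the 27 markers as a covariate, 3 members were called at 24 h, Vaultrc5 (1.21, adjusted p = 0.0139 by limma), Snora73b (1.00, adjusted p = 0.024 by limma) and Snora73a (0.98, adjusted p = 0.0246 by limma), where 2.14% of all genes were called higher and 0.471% lower. The values of Snora33 and Snora74a fell to 0.82 and 0.48 there, and that of Snora16a was 0.81. Without the 2 arrays at 24 h of the highest fibroblast level, 6 of the 9 were called, at 1.16 for Vaultrc5, 0.91 for Snora73a, 0.88 for Snora73b, 0.83 for Snora31, 0.79 for Snora33 and 0.78 for Snora16a, where 2.27% of all genes were called higher and 0.527% lower. The fibroblasts' own levels of these RNAs were not measured.

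**Figure D3:**
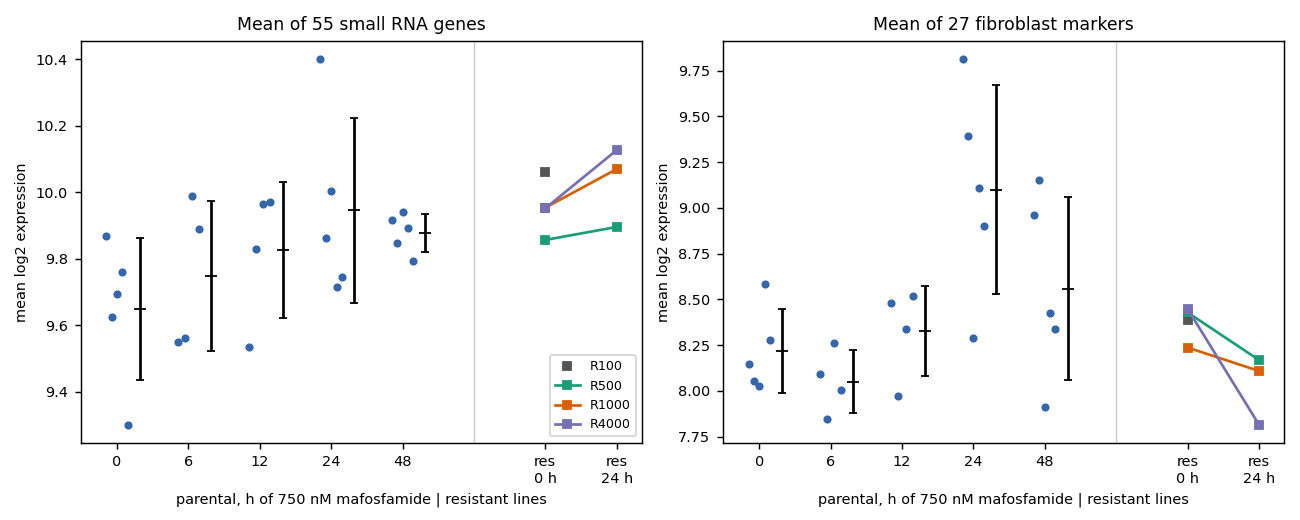
Mean log2 expression of the 55 small RNA genes (left) and of 27 fibroblast markers (right) on each array, with parental time points as blue points beside their mean and SD, and resistant lines as squares. The first 24 h array is the highest parental array on both sides, at 10.40 and 9.81, and the fifth 0 h array is the lowest on the left, at 9.30.

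Length and class went together, since box H/ACA RNAs are longer (median 125 bases) than box C/D RNAs (median 68 bases). All 9 members called at 24 h were annotated at 105 bases or more. The 29 members of up to 100 bases had a median 24 h change of 0.048, and the 26 longer ones a median of 0.382. Across the 55 members the rank correlation of length with the 24 h change was 0.36, but across the 20 box H/ACA members it was -0.07 and across the 31 box C/D members -0.006. These are descriptions across genes measured on the same arrays, and genes are not independent replicates. Length and class cannot be told apart in the comparison between the classes.

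**Figure D4:**
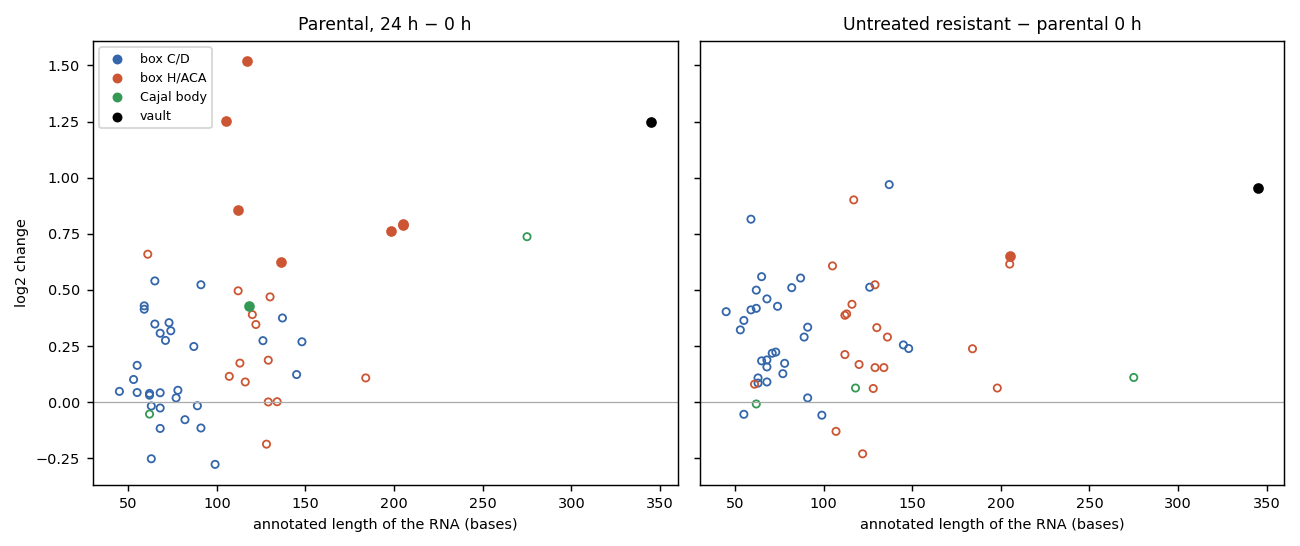
Log2 change against annotated length for the 55 small RNA genes in the parental line at 24 h (left) and in untreated resistant lines against parental 0 h arrays (right). Filled points were called by limma. On the left all 9 filled points are at 105 bases or more. The box C/D RNAs there, mostly under 100 bases, range from -0.28 to 0.54 with a median of 0.10.

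For 28 members the host had a probe set of 1 symbol, which gave 24 hosts, and 0 of these were called by limma in any of the 8 comparisons, with 1 higher and 2 lower at an unadjusted p under 0.05 at 24 h. At 24 h 4.35% of all genes were called higher, 2.43% were called lower and 29.4% passed the unadjusted level, so few calls would be counted among 24 genes at the share of all genes. At 24 h, 24 of the 28 members lay above their host. The median change was -0.005 over the 24 hosts and 0.148 over the 28 members, and Pearson's r across the 28 pairs was 0.20. Without the fifth 0 h array the 24 h median over all 55 members fell from 0.25 to 0.10, and hosts were not compared in that fit. Snora33 rose by 1.25 where Rps12 had a change of 0.02 (SE 0.08), and Snora31 rose by 0.86 where Tpt1 had a change of -0.01 (SE 0.04). Scarna8 rose by 0.43 where Haus6 had 0.14 (SE 0.11). The probe sets of ribosomal protein and other abundant hosts may also, or instead, measure transcripts of closely related genes or pseudogenes. A host was represented by its probe set of the highest mean, and whether this set lies at the host locus was not checked. The sets used for Rps12 and Tpt1 have numbers far from those of Snora33 and Snora31, whereas those of Haus6 and Scarna8 are close. The sets of Rpl23, Rpl27a, Kansl2, Rpsa, Hspa8, Rpl23a and Rps3a1 are also far in number from those of their members. Contrasts with such sets may not be with the host itself. Snhg3, Snhg4 and Snhg12 had no probe set of a single symbol and are not analysed here.

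Members that share a host did not always move by the same amount. Snord15a and Snord15b, both in Rps3, changed by 0.27 and 0.12 at 24 h, and Snord73a and Snord73b, both in Rps3a1, by 0.31 and 0.28. In the nucleolin gene Ncl, Snora75 and Snord82 changed by 0.09 and 0.04. The widest gap was in Snhg12, 1.52 for Snora44 against 0.63 for Snora16a. None of these within-host differences was tested.

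**Figure D5:**
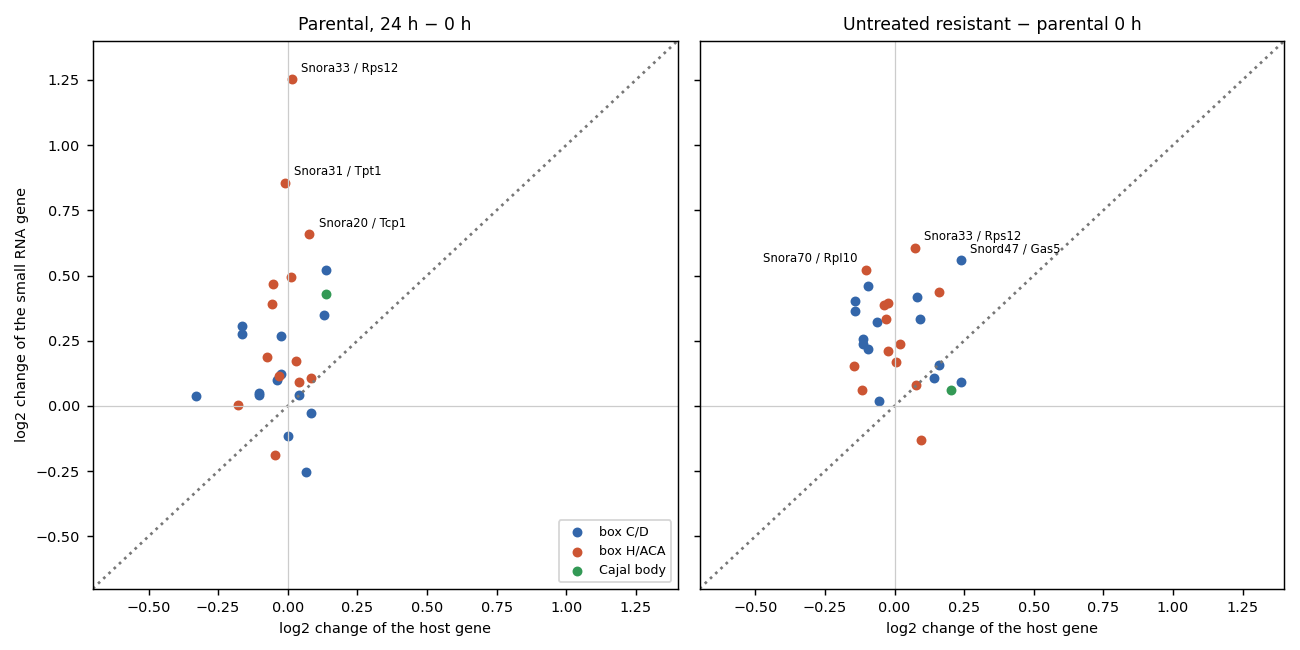
Log2 change of 28 small RNA genes against that of the host gene, in the parental line at 24 h (left) and in untreated resistant lines against parental 0 h arrays (right). The dotted line marks equal change, and some host probe sets may not lie at the host locus. On the left 24 of 28 points lie above the line, while the hosts lie between -0.33 and 0.14.

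The lists held 46 measured genes for proteins that bind, mature or degrade RNAs of these classes, or for noncoding hosts of such RNAs. By limma 0 of the 46 were called in any of the 8 comparisons. At 24 h 1 was higher and 1 lower at an unadjusted p under 0.05. Of all genes 29.4% passed that level, 4.35% were called higher and 2.43% lower. The core proteins of the particles (8 of 8 measured, among them Fbl, Nop56, Nop58 and Dkc1) had a median change of 0.012 at 24 h, with values of -0.08 for fibrillarin and -0.07 for dyskerin. The 13 assembly factors had a median of 0.067, and the 15 genes for trimming and decay a median of 0.051. Nearest to the threshold among these at 24 h was the nuclear exosome nuclease gene Exosc10 (-0.17, SE 0.06, adjusted p = 0.0645 by limma). Of 21 noncoding hosts listed, 8 were measured, and among these only Gas5 holds a member described here, Snord47. Gas5 had a change of 0.13 (SE 0.08).

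The untreated resistant lines had higher levels of Vaultrc5 (1.93-fold) and Snora73b (1.57-fold) than the untreated parental line. Of the 55 members 2 were called higher and 0 lower, where 0.0201% of all genes, 4 in number, were called higher and 0.0552% lower. Vaultrc5 was at 7.75 in R100, 8.06 in R500, 7.88 in R1000 and 7.75 in R4000, all above the highest control of 7.13, a change of 0.95 (SE 0.11, adjusted p = 0.0166 by limma). Snora73b was at 11.72, 11.72, 11.73 and 11.64 in the same order, all above the highest control of 11.27, a change of 0.65 (SE 0.098, adjusted p = 0.0446 by limma). Both changes kept their direction in all 17 alternative settings, with adjusted p up to 0.127 and 0.282. The call of Vaultrc5 was made in 11 of them and that of Snora73b in 6. No member was called when all probe sets were tested together, or when R100, R500, R1000, or the third or the fourth 0 h array was left out. With 1 array per line the lines serve as the replicates, and they share 1 history.

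Just outside the threshold were Snord118 and Snora73a. Snord118, the U8 RNA, was at 6.51, 6.67, 7.34, 6.97 and 7.02 at 0 h and at 8.11, 7.65, 8.06 and 7.65 in R100, R500, R1000 and R4000. The groups did not overlap, and the change was 0.97 (SE 0.17, adjusted p = 0.0769 by limma). In the parental line Snord118 varied widely at 24 h, from 6.43 to 8.54. Snora73a was at 11.75, 11.80, 11.74 and 11.78 in the lines, a change of 0.61 (SE 0.11, adjusted p = 0.0769 by limma). Snora44 reached 10.85 to 11.26 in the lines, above every control, with a change of 0.90 (SE 0.27, adjusted p = 0.397 by limma).

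In all, 10 members had the 4 untreated lines above all 5 controls, against 2.32% of all genes, and 0 had them below, against 1.33%. Beside those named above they included the box H/ACA RNA Snora70 in Rpl10 and the box C/D RNAs Snord33 in Rpl13a, Snord49a and Snord52. Snord52 was at 9.61, 9.22, 9.40 and 9.19 in the lines and between 7.42 and 9.08 at 0 h, a change of 0.82 (SE 0.29, adjusted p = 0.535 by limma). Snord49a and Snord33 had changes of 0.50 and 0.51. By the unadjusted p, 20 of the 55 passed 0.05, all higher, against 7.1% of all genes in either direction. The median change was 0.255, with 50 of 55 above 0, where all genes had a median of -0.006 and 48.0% above 0. Without the fifth control array the median of the members was 0.205, with 47 above 0. The median was 0.29 over the box C/D RNAs and 0.26 over the box H/ACA RNAs, where it was 0.10 and 0.43 at 24 h in the parental line. The difference between the classes was not tested in either comparison. The Cajal body RNAs had values from -0.008 to 0.11, and the lowest member was Snora69 at -0.23.

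The measured hosts had a median of -0.009 in the untreated resistant lines, against 0.247 over their 28 members, and 23 of the 28 members lay above their host. The fifth control array was included here too. Snora70 had a change of 0.52 where its host Rpl10 had -0.10 (SE 0.07). Of the 46 genes of the binding and maturation lists, 9 were higher and 0 lower at an unadjusted p under 0.05, against 7.1% of all genes in either direction, and 0 were called. The 13 assembly factors were all above 0, with a median of 0.169, where 48.0% of all genes were above 0. The values nearest to the threshold were those of the noncoding hosts Snhg15 (0.30, SE 0.08, adjusted p = 0.318 by limma) and Snhg5 (0.37, SE 0.11, adjusted p = 0.397 by limma) and of the core protein gene Nop58 (0.26, SE 0.08, adjusted p = 0.397 by limma). Neither Snhg15 nor Snhg5 holds a member described here.

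The lines were also compared singly with the range of the 5 controls, with no test. R100 lay above it for 31 of 55 members, R500 for 14, R1000 for 22 and R4000 for 21, where 11.6%, 10.8%, 10.9% and 11.1% of all genes did so. R500 lay below it for 1 member and the other 3 lines for 0, where 10.1% of all genes lay below it in R100, 11.8% in R500, 12.5% in R1000 and 13.5% in R4000. The number of members above the controls did not grow with the dose at which a line was taken. After 24 h of drug R500 lay above for 19 members and below for 5, R1000 above for 33 and R4000 above for 36, against 10.3%, 11.5% and 9.98% of all genes above. Treated R1000 and R4000 lay below the range for 0 members, and 18.5%, 15.7% and 13.1% of all genes lay below it in treated R500, R1000 and R4000.

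In the resistant lines 24 h of mafosfamide gave no call among the members. The counts were 0 higher and 0 lower, where 0.0251% of all genes were called higher and 0.00502% lower. By the unadjusted p, 1 member passed 0.05, against 2.9% of all genes. This was Snora69, a box H/ACA RNA in Rpl39, which went from 9.94 to 10.52 in R500, from 10.02 to 10.68 in R1000 and from 10.09 to 10.81 in R4000. Its change was 0.66 (SE 0.26, adjusted p = 1.0 by limma). The 3 lines moved the same way in 24 members, upwards in 19 and downwards in 5, beside 14.5% and 21.5% of all genes. Snora74a was among the 19, with steps of 0.45, 0.41 and 0.52 and an average of 0.46 (SE 0.23). Snora31 rose from 8.68 to 9.62 in R500 but by 0.31 and 0.34 in R1000 and R4000.

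Among the members called at 24 h in the parental line, the vault RNA and the RNAs in Snhg3 had small estimates in the resistant lines. Snora73b changed by 0.08 (95% interval -0.32 to 0.49) in the lines against 0.79 in the parental cells, and Vaultrc5 by 0.18 (95% interval -0.44 to 0.81) against 1.25. Snora44 had a change of -0.12 (95% interval -1.05 to 0.82) in the lines. Other called members had larger estimates there, 0.53 for Snora31 and 0.51 for Snora33, against 0.86 and 1.25 in the parental cells. Snora16a and Scarna8 changed by 0.22 each and Snora73a by 0.10, and Snora74a is given above. The difference in response, resistant minus parental, was tested as an interaction, and 0 members and 0.0% of all genes were called in either direction. By the unadjusted p, 4 members passed 0.05, against 7.83% of all genes. They were Snora44 (-1.64, 95% interval -2.82 to -0.45), Vaultrc5 (-1.07, 95% interval -1.86 to -0.28), Snora73b (-0.71, 95% interval -1.22 to -0.20) and Snora73a (-0.69, 95% interval -1.24 to -0.13). Their adjusted p by limma lay between 0.424 and 0.498. All 4 are among the members called at 24 h in the parental line. Those calls rest on the same parental arrays, whose change is subtracted here. A negative difference among members so chosen is no independent observation.

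Over all members the median difference was -0.138, with 16 of 55 above 0, against 53.1% of all genes. With the fibroblast mean as a covariate it was 0.088, with 34 above 0, and Snora44 had a difference of -0.37 and Snora33 of 0.091 in place of -0.75. The values of Snora73a, Snora73b and Vaultrc5 in that fit were -0.73, -0.70 and -0.93. Without the first 24 h array the median difference was -0.015, and without the fifth 0 h array -0.048. Without the 2 parental 24 h arrays of the highest fibroblast level it was -0.026, with 26 members above 0. Among these fits the median was above 0 only with the covariate.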

How the data were processed

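RNA was extracted with RNeasy columns and hybridised to Affymetrix Mouse Gene ST 1.0 arrays. The deposited values are log2 expression values that the authors made with robust multi-array averaging (RMA, with affy in R), and mm9 is the build in the submitters' notes. Of 34760 probe sets in the table, 21640 had 1 annotated symbol, 1321 had several and 11799 were unnamed here. Each gene was represented by its probe set of the highest mean over the 30 arrays, which gave 19937 genes. A further 22 probe sets that name a small RNA together with other symbols were not used.

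Limma 3.58.1 in R 4.3.3 (lmFit and eBayes) was run on all genes, with the Benjamini-Hochberg adjustment and a threshold of 0.05. The 23 parental arrays formed 1 fit, the 5 parental 0 h arrays and 4 untreated resistant lines another, and 16 arrays a fit with a term for each line, in which the difference in response was an interaction. The labels call the arrays biological replicates but do not say how the cultures were separated, so p-values measure the spread between these arrays. The number of arrays limits the precision. Intervals are 95% intervals of these fits. Hosts and promoter windows come from RefSeq tables of GRCm38.p6, and no sequence of the small RNAs themselves was used here. The p53 half-site was searched as its consensus over both strands.

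The members, the gene lists and the tests were chosen with earlier results of these data known. The members named were those called in a comparison, at most the 8 largest rises and 8 largest falls, or the 5 with the smallest p where fewer were called. Added were the 5 with the widest range over the arrays, those with several probe sets, the Cajal body and vault members, and those needed to cut the ribosomal RNA precursor. Members not called that are named as nearest to a threshold, lowest of a class, not overlapping or sharing a host were chosen after their values were seen. Alternatives were the scaling of the arrays, a filter on low values, the choice and number of probe sets, array weights, an intensity trend with robust fitting, the fibroblast mean as a covariate, replicate blocks, smaller fits and leaving out each array. The fit without the 2 parental 24 h arrays of the highest fibroblast level was added after seeing the data. The scripts were tested on simulated data. One item is not reported here.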

Additional observations from a re-analysis of the deposited data

Results flagged for a closer look

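Within groups of 4 or 5 arrays, an array far from the others of its group by Dixon's criterion was found in 9 of 115 groups tested over the named members, where chance gives about 1 in 20. The first 12 h array was low for 3 box C/D RNAs, with log2 levels of 8.45 for Snord22 against 9.43 to 9.48 on the other arrays, 10.06 for Snord42b against 10.67 to 10.78, and 8.03 for Snord52 against 9.03 to 9.11. The second 48 h array stood apart for 4 members. It was high for Snora3 at 11.12 (others 10.82 to 10.86) and Snora74a at 9.89 (others 9.54 to 9.61), and low for Snord104 at 11.61 (others 12.23 to 12.37) and Snord49a at 9.71 (others 10.10 to 10.22). The first 24 h array was high for Scarna13 at 12.74 (others 11.60 to 11.92). The fifth 0 h array was low for Snord58b at 5.86 (others 7.47 to 7.81).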

How the results depend on the processing

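At 12 h the number of members called was 2, and it was 1 with arrays centred on their medians, with all probe sets tested, with an intensity trend and robust fitting, with the title's replicate number as a block and with the 2 groups alone. At 24 h the number was 9. It was 3 with the fibroblast covariate and 1 with the 2 groups alone. For 48 h against 24 h it was 2 with array weights. For untreated resistant lines against 0 h the number was 2, and it was 1 with median centring, 1 with housekeeping centring, 1 with the fibroblast covariate, 0 with all probe sets, 4 with array weights and 4 with trend and robust fitting. For treated resistant lines it was 2 with array weights and 1 with the 6 resistant arrays alone. The median difference in response was 0.088 with the fibroblast covariate, and that of Snora33 turned to 0.091. In each of these the cause was not tested.

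Leaving out 1 array at a time gave 1 to 2 members at 12 h, 6 to 14 at 24 h and 0 to 2 for untreated resistant lines (1 without R4000 or replicate 5 of 0 h, 0 without R100, R500, R1000 or replicates 3 or 4 of 0 h), and 0 in the other 5 comparisons. The 24 h count was 14 without replicate 1 of 0 h and 6 without replicate 2 or replicate 5 of 0 h or replicate 1 of 24 h. Snora31, Snora33, Snora73a, Snora74a and Vaultrc5 were called in all 10 of these 24 h fits. The medians of the members ranged from 0.014 to 0.156 at 6 h, 0.033 to 0.276 at 12 h, 0.10 to 0.293 at 24 h, 0.118 to 0.311 at 48 h, -0.051 to 0.122 for 48 h against 24 h, 0.198 to 0.351 for untreated resistant lines, 0.04 to 0.137 for treated ones and -0.215 to -0.015 for the difference in response.

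The description labels and the titles number the parental arrays differently at 6 h and 12 h. Arrays with the same description number deviated together in 41 of 43 pairs (r above 0.1, lowest 0.065, median 0.40), and 21 of 23 arrays correlated best with their own number, a hint from the data that the labels do not state. For the title number this held for 9 of 23 arrays. With the replicate block of the description number, 16 members were called at 24 h, 15 higher and 1 lower (Snord8). There 11.8% of all genes were called higher and 11.9% lower. The box C/D RNAs Snord104, Snord14e and Snord85 were among the 15 higher. In the same fit 1 member was called for 48 h against 24 h (Snora33). With the title number as a block, 14 were called at 24 h, 13 higher and 1 lower, where 7.5% of all genes were called higher and 6.17% lower. No paired analysis was possible for the untreated resistant lines against 0 h because they share fewer than 2 numbers.

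Over all alternatives, 788 values of named members kept their direction and their side of the threshold, 57 no longer passed it, 10 newly passed it and 1 was reversed. Many of the 788 belong to results not called in the main fit, so these counts do not measure how stable the calls were. Among the calls, that of Snora16a at 24 h was lost in 10 of 22 alternatives. That of Snora73b in the untreated resistant lines was lost in 11 of 17. The counts and medians moved in 33 of their alternatives and stayed within their limits in 253.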
